A study of Mus musculus with 6 samples.

Results

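Collagens are the triple-helical proteins of the extracellular matrix. Each chain is encoded by a gene whose symbol is Col, the collagen type, a, and the number of the chain, and every gene of the platform annotation that follows this pattern and has a probe set assigned to it alone was taken. This gave 42 collagen genes of the 18193 genes measured, each read by its probe set with the highest mean, and all 42 entered the test since no filter on level was applied. By structure they comprised 8 basement membrane, 11 fibrillar, 9 fibril-associated, 5 beaded filament, 3 short-chain and 4 transmembrane collagens, and 2 others (Col7a1 and Col26a1).

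The RNA came from whole retinas of BALBc mice, an albino laboratory strain. Both groups were dark adapted for 1 week. The light damaged group was then given 6000 lux of white fluorescent light for 6 hours and sampled 24 hours later, whereas the dark adapted group was not exposed. Each group had 3 Affymetrix arrays, and the comparison asks how retinal RNA levels respond to damaging light. Nothing in the labels says that the arrays come from separate animals, so the p-values rest on the spread among these arrays, and that spread may be technical. The number of arrays limits their precision. In bulk tissue, fewer cells of a type and less RNA per cell cannot be told apart.

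Collagen IV chains form the network of all basement membranes, which in the retina surround the vessels and make up the inner limiting membrane against the vitreous. Collagens XV and XVIII are attached to basement membranes. Fibrillar collagens form the rope-like fibrils of sclera, vessel walls, cartilage and vitreous, and fibril-associated collagens sit on their surface. Procollagen chains are hydroxylated and folded in the endoplasmic reticulum, and the ends of the fibrillar ones are cut off by proteases after secretion.

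Values are log2 expression values, whose array medians lay between 6.15 and 6.18 and upper quartiles between 7.41 and 7.67. All 8 measured photoreceptor markers and 7 of 8 Müller glia markers were above the upper quartile on every array, as the label retina requires. Of the photoreceptor markers 2 fell, where 0.269% of all genes did, led by the cone opsin gene Opn1sw (-1.62, adjusted p = 0.00417). The glial filament gene Vim had the smallest p of the Müller glia list, of which 1 of 8 genes rose (1.67, adjusted p = 0.002), where 1.74% of all genes did. In that list 5 of the 8 changes were negative and the median was -0.11. Lens markers gave a high signal on every array: 8 of the 10, crystallins among them, lay above the upper quartile throughout. Some crystallins are also made by the retina itself, and the labels do not say whether lens tissue was carried over. The summed linear signal of the 10 lens markers ranged from 26283 to 69296 in dark adapted and from 27396 to 62095 in light damaged retinas, and in both groups replicate 3 was the highest and replicate 1 the lowest for the mean log2 level of the list. Same-numbered arrays of the groups deviated together over all probe sets, so the replicate number was also fitted as a block. That fit compares light with dark within the 3 pairs of arrays. In it 4 photoreceptor markers fell, and 3 Müller glia markers rose and 2 fell. Over all genes 6.73% rose and 2.13% fell in that fit.

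None of the 42 collagen genes passed the threshold of 0.05 on the adjusted p in the unpaired limma fit, in which 2.01% of all genes did, and 5 of the 42 had an unadjusted p under 0.05 (11.9%, against 11.0% of all genes). With the replicate block 4 collagen genes rose, where 6.73% of all genes did: Col4a1, Col4a2, Col18a1 and Col8a1. Col19a1 fell, where 2.13% of all genes did, and 37 did not pass. The 5 together were 11.9% of the collagen genes, against 8.87% of all genes past the threshold in that fit, so the family as a whole was near the background. The median change was 0.03 for the collagens and 0.03 for all genes. In 6 collagen genes (14.3%) the groups did not overlap, against 15.6% of all genes, and in each of the 6 the light damaged arrays were the higher ones. That order was found in 11.9% of all genes and the opposite one, which no collagen gene showed, in 3.75%. The change was positive in 22 collagen genes and in 57.0% of all genes. All 3 pairs had the same sign in 13 collagen genes (31.0%), against 44.4% of all genes.

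**Figure D1:**
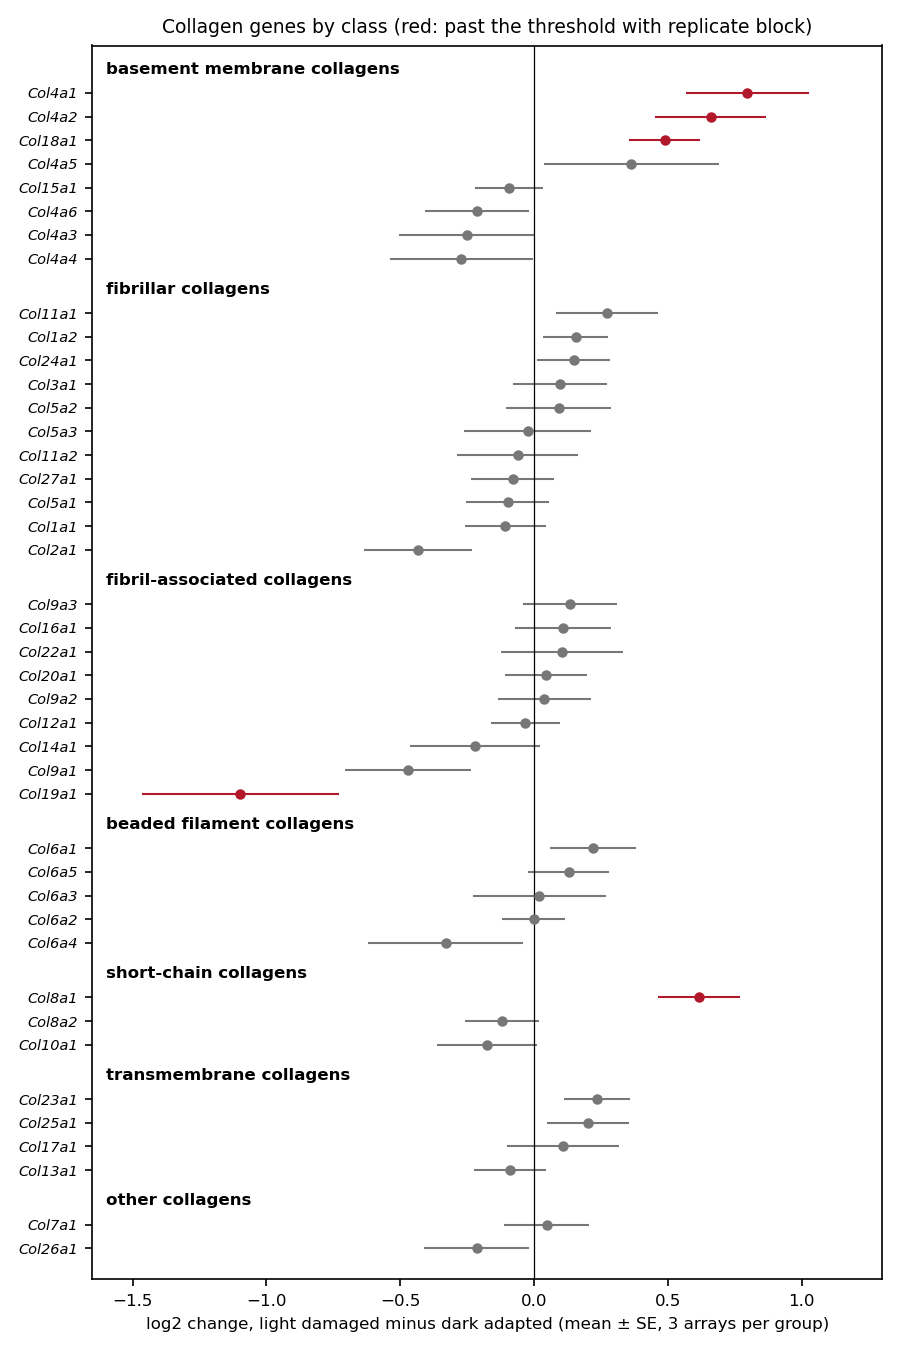
Log2 change of each of the 42 collagen genes, light damaged minus dark adapted retinas, by structural class. Points are differences of group means and bars their standard errors from the unpaired limma fit with 3 arrays per group; red marks the 5 genes past the threshold with the replicate block. Col4a1, Col4a2, Col18a1 and Col8a1 lie between 0.49 and 0.80 and Col19a1 at -1.10, and the fibrillar genes lie between -0.43 and 0.27.

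The basement membrane class held 3 of the 4 collagen genes that rose with the block. Of its 8 genes these 3 rose with the block, where 6.73% of all genes did, none fell and 5 did not pass. Of the 11 fibrillar genes none passed in either fit (limma, adjusted p). At an unadjusted p under 0.05 without the block there were 0 of 11, against 11.0% of all genes. The median change was 0.14 in the basement membrane and -0.02 in the fibrillar class, beside 0.03 for all genes, and these medians were not tested against each other. Within the pairs, the mean change of the basement membrane class was 0.08, 0.13 and 0.34, and that of the fibrillar class 0.08, 0.01 and -0.10, in the order of replicates 1 to 3. Over all genes the mean change in these pairs was 0.008, 0.05 and 0.11, and over 6 reference genes 0.01, 0.02 and 0.28. In the first pair the classes were thus alike, and the largest gap was in the third. The basement membrane class was itself split, with 4 positive and 4 negative changes.

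Col4a1 and Col4a2 encode the alpha1 and alpha2 chains, which assemble in a ratio fixed by the trimer and form the collagen IV network found in most tissues. Their genes lie head to head on chromosome 8. In RefSeq (GRCm38.p6) the Col4a2 transcript starts on the plus strand at 11312805 and the Col4a1 transcript on the minus strand at 11312826, so the starts are 21 bases apart and the first bases of the transcripts overlap. This shared stretch is shown because both neighbours rose with the block. It is given 5′ to 3′ on the plus strand (chr8:11312805-11312826), with capitals marking a GC box (GGGCGG):

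Col4a1/Col4a2 shared start: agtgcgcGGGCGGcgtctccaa

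Col4a1 measured 8.92, 9.42 and 9.51 in dark adapted and 9.73, 10.01 and 10.49 in light damaged retinas (log2, replicates 1 to 3). All light damaged arrays were above all dark adapted ones, and in each group replicate 1 was lowest and replicate 3 highest. The means were 9.28 ± 0.31 and 10.08 ± 0.38 (SD, n = 3 per group), a 1.74-fold difference (log2 change 0.80 ± 0.23, SE) with adjusted p = 0.17 without and 0.00255 with the replicate block. The pairs differed by 0.81, 0.60 and 0.98. A further probe set of the gene gave 0.68.

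Col4a2 measured 8.20, 8.43 and 8.71 in dark adapted and 8.84, 8.99 and 9.49 in light damaged retinas, again without overlap and with the arrays in the same order. The 1.58-fold difference (0.66 ± 0.21, SE) had adjusted p = 0.214 without and 0.00496 with the block, and the pairs differed by 0.64, 0.56 and 0.78. Both genes stayed past the threshold with the block when any 1 of the 3 pairs was left out.

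The lens capsule is a basement membrane rich in collagen IV, and lens markers followed the same replicate order within the groups. The mean lens marker difference between the groups was -0.13, -0.68 and -0.14 within pairs 1, 2 and 3. None of the 10 lens markers rose in either fit, and with the block 2 fell, where 2.13% of all genes did. Among them was Bfsp1, a lens filament gene (-1.12, adjusted p = 0.00028 with the block), which also had the smallest p of the list without the block (adjusted p = 0.735). Of 8 endothelial markers none passed without the block and 1 rose with it, where 6.73% of all genes did. It was Kdr, a VEGF receptor gene that retinal neurons and glia can express as well (0.44, adjusted p = 0.191 and 0.0318 with the block). The summed linear signal of the endothelial list was 1384 to 1623 in dark adapted and 1880 to 1954 in light damaged retinas, with Kdr its largest member; Tie1 lay below the lower quartile of probe set means. The Kdr call with the block was lost on quantile normalized arrays, on reference-centred arrays and without pairs 1 or 2 (adjusted p = 0.195, 0.187, 0.0912 and 0.357). Any part of lens and endothelial RNA in the collagen IV values was not tested.

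**Figure D2:**
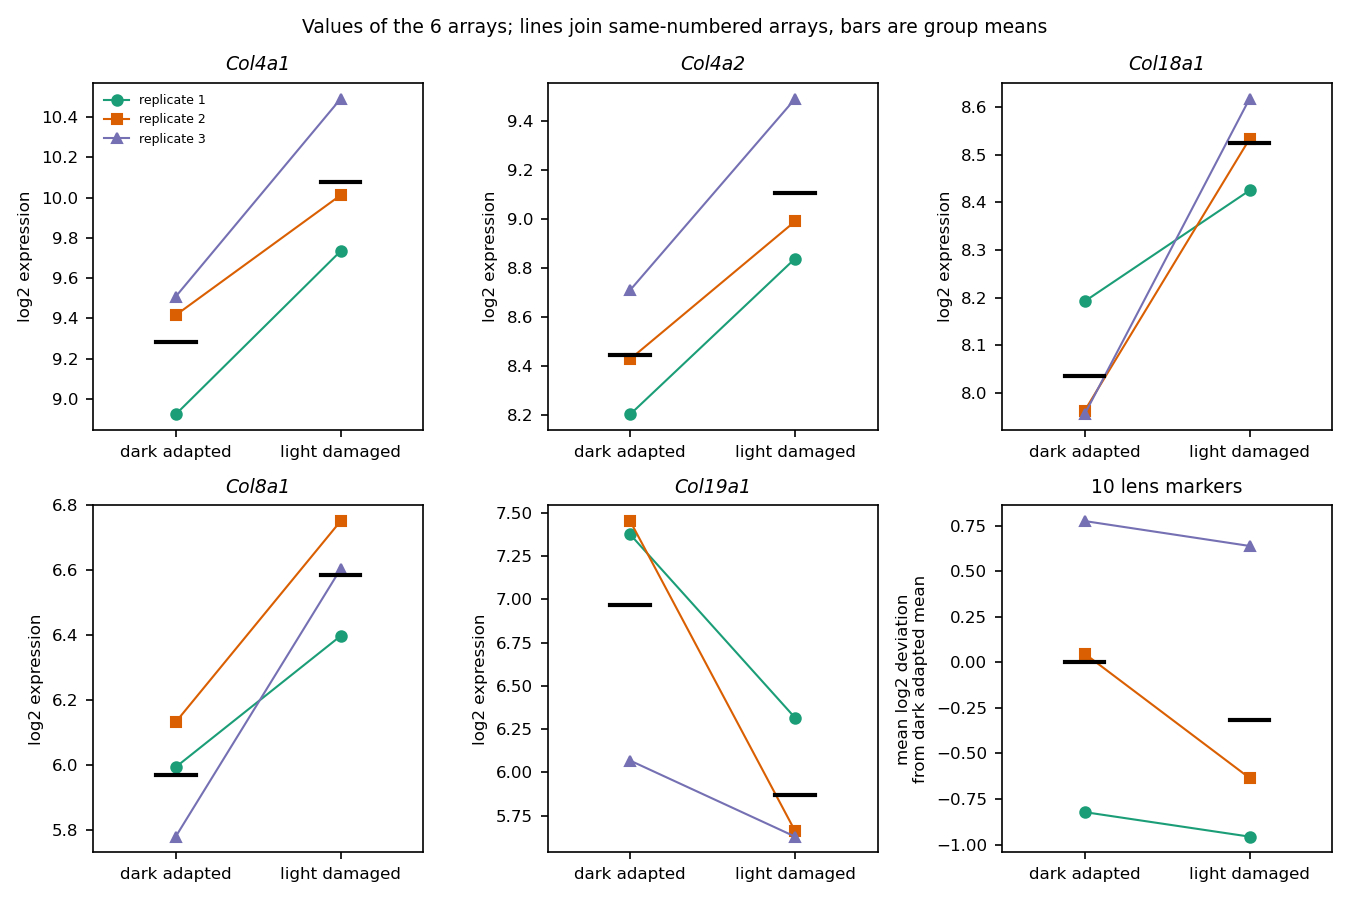
Values of the 6 arrays for the 5 collagen genes past the threshold with the replicate block, as log2 expression, and for 10 lens markers, as the mean log2 deviation from the dark adapted mean. Lines join arrays with the same replicate number and black bars are group means; the vertical axes do not start at 0. Every line rises for Col4a1, Col4a2, Col18a1 and Col8a1 and falls for Col19a1 and the lens markers.

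Col18a1 encodes collagen XVIII, whose C-terminal fragment is endostatin. It was the third basement membrane gene that rose with the block. It measured 8.19, 7.96 and 7.96 in dark adapted and 8.42, 8.53 and 8.62 in light damaged retinas. The groups did not overlap and the light damaged values were close together. The difference was 1.40-fold (0.49 ± 0.13, SE), with adjusted p = 0.142 without and 0.0339 with the block; the pairs differed by 0.23, 0.57 and 0.66. Its other probe set gave 0.49. The call with the block was lost without pair 2 (adjusted p = 0.223), on arrays quantile normalized again (adjusted p = 0.0755) and on arrays centred on 6 reference genes, below called reference-centred (adjusted p = 0.114).

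The minor collagen IV chains gave no single direction. Col4a3, Col4a4 and Col4a5 encode the chains of the alpha3-alpha4-alpha5 network known from the kidney glomerulus, and mutations in them cause Alport syndrome. Col4a3 measured 7.32, 7.37 and 7.003 in dark adapted and 6.60, 6.76 and 7.58 in light damaged retinas. Col4a4 measured 7.40, 7.30 and 7.55 in dark adapted and 6.94, 6.69 and 7.81 in light damaged retinas. In both genes light damaged replicates 1 and 2 were below and replicate 3 above every dark adapted array, so the groups overlapped. The pair differences were -0.72, -0.61 and 0.58 for Col4a3 and -0.46, -0.61 and 0.25 for Col4a4. The mean changes were -0.25 ± 0.25 and -0.27 ± 0.27 (SE), with adjusted p = 0.861 and 0.859, and 0.56 and 0.364 with the block. Without the third pair both were called lower with the block (-0.67 and -0.53, adjusted p = 8.43e-07 and 5.1e-05), in a fit that rests on 2 pairs. Of all 18193 genes that fit called 1200 lower and 1966 higher. Among the collagens it also called Col4a5, Col11a1, Col5a2 and Col6a1 higher, which did not pass with all 3 pairs.

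Another probe set of Col4a3 read the gene differently. It gave 7.31, 7.66 and 7.65 in dark adapted and 6.36, 6.41 and 7.16 in light damaged retinas, a change of -0.90 with all light damaged arrays below the dark adapted ones. Its adjusted p over all single-gene probe sets was 0.16 without and 0.0135 with the block, where 1.52% of probe sets were lower. It was singled out after its values were seen, and its mean level was close to that of the chosen probe set (7.09 and 7.11). The other probe sets of Col4a4 gave -0.17 and -0.18.

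Col4a5 measured 7.08, 6.76 and 7.92 in dark adapted and 7.39, 7.30 and 8.15 in light damaged retinas, with replicate 3 well above the others in both groups. The mean change was 0.36 ± 0.33 (SE, adjusted p = 0.831). Each pair was higher in light (0.32, 0.54 and 0.24), with adjusted p = 0.0786 with the block. Col4a6, whose start lies 1343 bases from that of Col4a5 on the X chromosome, gave 6.22, 6.15 and 6.83 in dark adapted and 6.10, 6.29 and 6.17 in light damaged retinas (-0.21 ± 0.19, SE, adjusted p = 0.835). Col15a1, a relative of Col18a1, gave 6.07, 6.14 and 6.00 against 6.04, 6.03 and 5.85 (-0.09 ± 0.13, SE, adjusted p = 0.911). Its groups overlapped over a narrow range.

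**Figure D3:**
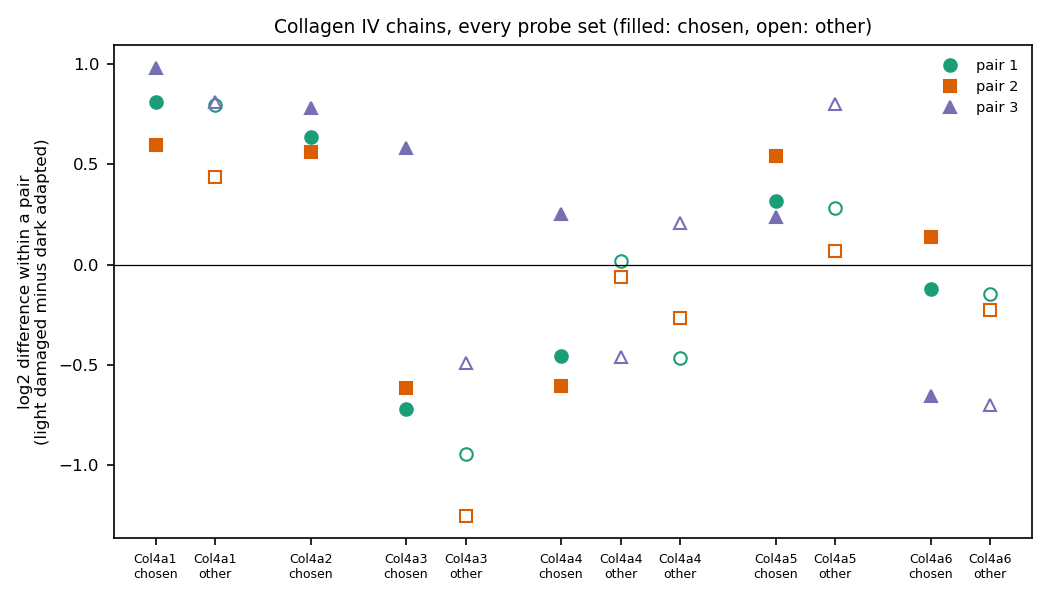
Log2 difference within each same-numbered pair of arrays, light damaged minus dark adapted, for every probe set of the 6 collagen IV genes. Filled symbols are the chosen probe sets and open symbols the other ones; the horizontal line marks no difference. Col4a1, Col4a2 and Col4a5 lie above the line in all pairs, and the chosen probe sets of Col4a3 and Col4a4 lie below it in pairs 1 and 2 and above it in pair 3.

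Fibrillar collagens showed small differences in both directions. Col1a1 and Col1a2 encode type I collagen, the main collagen of sclera and connective tissue. Col1a2 measured 7.20, 7.10 and 7.29 in dark adapted and 7.33, 7.37 and 7.36 in light damaged retinas. It was the only fibrillar gene of the 11 whose groups did not overlap, as in 15.6% of all genes. Its change was 0.15 ± 0.12 (SE, adjusted p = 0.789, and 0.437 with the block), and its other probe sets gave 0.01 and 0.20. Col1a1 gave 5.20, 5.17 and 5.58 against 5.10, 5.27 and 5.26, so dark adapted replicate 3 was the highest. Its change was -0.11 ± 0.15 (SE, adjusted p = 0.916). Col3a1, the fibrillar collagen of vessel walls, gave 4.91, 5.27 and 5.09 against 4.92, 5.48 and 5.16, with nearly the same values in the first pair and a change of 0.10 ± 0.18 (SE).

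Col2a1, the fibrillar collagen of cartilage and vitreous, had the largest negative change of its class. It measured 8.90, 8.55 and 8.10 in dark adapted and 8.10, 8.16 and 7.997 in light damaged retinas. Dark adapted replicate 3 lay within the light damaged range, and the others lay above it. The change was -0.43 ± 0.20 (SE), with adjusted p = 0.503 without and 0.0963 with the block, and the pairs differed by -0.80, -0.39 and -0.10. Col9a1, a chain of the collagen IX that decorates type II fibrils, had a like pattern: 9.18, 8.93 and 8.39 in dark adapted and 8.73, 8.13 and 8.22 in light damaged retinas. Its change was -0.47 ± 0.24 (SE, adjusted p = 0.556, and 0.0602 with the block), and a further probe set gave -0.46. With the block, both were called lower on quantile normalized arrays (adjusted p = 0.0415 and 0.0359) and without the third pair (-0.60 and -0.62). Col9a1 was also called lower there on reference-centred arrays, with the mean of its probe sets and without dim genes (adjusted p = 0.0489, 0.0288 and 0.0447).

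Collagen XI and collagen V chains nucleate fibrils. Col11a1 gave 5.73, 5.80 and 6.20 in dark adapted and 6.50, 5.97 and 6.08 in light damaged retinas (0.27 ± 0.19, SE), the largest positive change of the class, with light damaged replicate 1 standing above the rest. Col11a2 gave 7.32, 6.87 and 6.43 against 7.03, 6.67 and 6.73 (-0.06 ± 0.23, SE). Col5a1 gave 6.89, 7.21 and 6.70 against 6.82, 6.86 and 6.83 (-0.10 ± 0.15, SE). The dark adapted arrays of both genes spread around the light damaged ones. Col5a2 gave 5.58, 5.64 and 6.21 against 5.99, 6.04 and 5.68 (0.09 ± 0.20, SE). Its pairs differed by 0.41, 0.40 and -0.53, so the third pair went the other way. Col5a3 gave 5.96, 6.61 and 6.97 against 6.54, 6.53 and 6.40 (-0.02 ± 0.24, SE), and dark adapted replicate 1 was its lowest array. Col24a1 gave 4.56, 4.36 and 4.61 against 4.81, 4.62 and 4.55 (0.15 ± 0.14, SE), below the lower quartile of probe set means. Col27a1 gave 8.08, 8.40 and 7.94 against 8.09, 8.15 and 7.95 (-0.08 ± 0.15, SE), with pairs 1 and 3 nearly level.

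Outside these classes 1 of 23 collagen genes rose with the block, where 6.73% of all genes did, 1 fell, where 2.13% did, and 21 did not pass. Col8a1 encodes a short-chain collagen of vessel walls and of the basement membrane beneath the corneal endothelium. It measured 5.99, 6.13 and 5.78 in dark adapted and 6.40, 6.75 and 6.60 in light damaged retinas. All light damaged arrays were above all dark adapted ones, and the smallest adjusted p of any collagen gene in the unpaired fit was that of Col8a1 (0.103). The difference was 1.53-fold (0.62 ± 0.15, SE), with adjusted p = 0.0108 with the block, and the pairs differed by 0.40, 0.62 and 0.82. Its other probe sets, of lower level, gave 0.27 and 0.22. Of 4 corneal epithelium markers none passed without the block and 1 rose with it, where 6.73% of all genes did. It was Aldh3a1, an aldehyde dehydrogenase that also had the smallest p (1.29, adjusted p = 0.185 and 0.00159 with the block). The summed linear signal of that list was 223 to 318 in dark adapted and 345 to 578 in light damaged retinas, and its part in the Col8a1 values was not tested.

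The promoters of Col18a1 and Col8a1, which rose with the block and have no neighbour sharing their start, are shown as well. They are not the same kind of stretch as the shared collagen IV start, which lies within both transcripts. Each is the 250 bases before a RefSeq transcript start (GRCm38.p6, minus strand), with capitals marking GC boxes (GGGCGG) and CCAAT boxes (CCAAT) on either strand; overlapping matches were all counted. Col18a1 has a second RefSeq start, not shown, whose 250 bases held neither a GC box nor a CCAAT box. The array does not tell transcripts of the 2 starts apart. The coordinates are chr10:77166531-77166780 for Col18a1 and chr16:57754738-57754987 for Col8a1.

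Col18a1: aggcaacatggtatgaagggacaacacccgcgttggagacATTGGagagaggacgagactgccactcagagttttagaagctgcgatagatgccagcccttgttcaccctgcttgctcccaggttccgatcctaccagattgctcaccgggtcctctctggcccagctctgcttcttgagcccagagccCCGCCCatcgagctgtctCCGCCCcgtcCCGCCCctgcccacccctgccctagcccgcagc

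Col8a1: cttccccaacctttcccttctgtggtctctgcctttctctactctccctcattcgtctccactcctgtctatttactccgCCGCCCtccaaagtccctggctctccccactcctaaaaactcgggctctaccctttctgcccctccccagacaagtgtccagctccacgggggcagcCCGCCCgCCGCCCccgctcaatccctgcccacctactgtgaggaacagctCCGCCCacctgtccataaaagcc

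Col18a1 held 3 GC boxes and 1 CCAAT box in these bases and Col8a1 held 4 GC boxes. In the 250 bases before their own starts, Col4a1 held 1 CCAAT box and Col4a2 held 1 CCAAT box and 2 GC boxes. Promoter windows of 300 bases, 250 before and 50 after a start, were matched for 33 of the 42 collagen genes (36 windows). A GC box was present in 61.1% of these windows and in 35.7% of all 32851 windows, and a CCAAT box in 36.1% and 37.4%. TATA boxes (TATAAA) were in 13.9% and 13.6%. The AP-1 motif TGANTCA was in 1 collagen window, that of Col6a1, and in 7.81% of all windows; the STAT motif TTCNNNGAA was in 1 collagen window, that of Col6a5, and in 8.3% of all. None of the 5 collagen genes past the threshold with the block held either motif in its windows. These matches describe the letters only.

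Col19a1 encodes a fibril-associated collagen that some neurons of the brain and visual system make. It had the largest change of all collagen genes, measuring 7.38, 7.45 and 6.07 in dark adapted and 6.32, 5.66 and 5.63 in light damaged retinas. Dark adapted replicate 3 lay within the light damaged range, more than 1 log2 unit below the other dark adapted arrays, so the groups overlapped. The change was -1.10 ± 0.37 (SE), a 2.14-fold lower level, with adjusted p = 0.261 without and 0.011 with the block, and the pairs differed by -1.06, -1.79 and -0.44. Without dark adapted replicate 3 it was called in the unpaired fit as well (-1.55, adjusted p = 0.021). Its other probe sets gave -0.79 and -0.28. The call with the block was lost on quantile normalized arrays (adjusted p = 0.061) and with the mean of its probe sets (adjusted p = 0.0528).

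The remaining fibril-associated genes changed by -0.22 (Col14a1) to 0.13 (Col9a3), apart from Col9a1 above. Col12a1, Col16a1, Col20a1, Col22a1 and Col9a2 lay between -0.03 and 0.11. The 5 beaded filament genes, whose collagen VI forms microfibrils near basement membranes, changed by -0.33 (Col6a4) to 0.22 (Col6a1), and none passed in either fit. Col8a2, the partner of Col8a1, was at -0.12 and Col10a1, a collagen of growth plate cartilage, at -0.17. Col7a1, which anchors the epidermis, was at 0.05 and Col26a1 at -0.21. In all of these genes the groups overlapped. Col17a1, Col6a5, Col8a2 and Col26a1 lay, like Col24a1, below the lower quartile of probe set means (5.07), where array values are least reliable.

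Transmembrane collagens span the cell surface and shed their triple-helical part. Col23a1 measured 8.48, 8.33 and 8.50 in dark adapted and 8.67, 8.60 and 8.75 in light damaged retinas, without overlap, a change of 0.24 ± 0.12 (SE, adjusted p = 0.585, and 0.21 with the block). Col13a1 was at -0.09 and Col17a1 at 0.11. Col25a1, a collagen of neurons first found in amyloid plaques, was at 0.20 ± 0.15 (SE, adjusted p = 0.779) by its chosen probe set. Its other probe set gave 6.13, 5.63 and 5.59 in dark adapted and 7.02, 6.80 and 6.75 in light damaged retinas. All light damaged arrays were above the dark adapted ones there, by 1.07. Over all 34945 single-gene probe sets, of which 1.27% passed without the block, it was the 1 collagen probe set of 82 that did (adjusted p = 0.035, and 0.00158 with the block). Over the same probe sets with the block 6 collagen probe sets were higher, where 4.58% of all were, and 4 lower, where 1.52% of all were. The mean of both Col25a1 probe sets was called higher with the block. Both were positive and differed in size, and the second one was named after its values were seen.

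Enzymes that act on procollagen were measured next. Of 27 measured genes of collagen synthesis and processing 3 rose, where 1.74% of all genes did, none fell and 24 did not pass. With the replicate block 8 rose (29.6%, against 6.73% of all genes) and none fell. The median change of the list was 0.22, beside 0.03 for all genes. The 3 that rose act at the same step: Bmp1 encodes the protease that removes the C-terminal propeptide of fibrillar procollagens, and Pcolce and Pcolce2 encode proteins that enhance this cleavage. Tll1 and Adamts3, also protease genes of the list, were at 0.07 and -0.27 and passed in neither fit. Tll1 lay below the lower quartile of probe set means.

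Bmp1 measured 6.89, 7.22 and 7.16 in dark adapted and 8.07, 8.22 and 8.37 in light damaged retinas. The groups lay far apart relative to their spread, with a 2.19-fold rise (1.13 ± 0.15, SE, adjusted p = 0.00693, and 0.000222 with the block). Of its other probe sets 1 gave 1.78 and 1 gave -0.03. Pcolce2 measured 5.99, 5.63 and 5.71 in dark adapted and 7.08, 6.78 and 6.99 in light damaged retinas, a 2.25-fold rise (1.17 ± 0.15, SE, adjusted p = 0.00668, and 0.000173 with the block) by its only probe set. Both kept the call with any 1 array left out (adjusted p up to 0.0489 for Bmp1 and 0.0498 for Pcolce2).

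Pcolce measured 6.51, 6.90 and 6.42 in dark adapted and 8.93, 8.72 and 7.47 in light damaged retinas. Light damaged replicate 3 was well below the other light damaged arrays but above all dark adapted ones. The 3.39-fold rise (1.76 ± 0.35, SE) had adjusted p = 0.0495, and 0.000945 with the block. This call was lost when any 1 of the dark adapted arrays or light damaged replicates 1 or 2 was left out (adjusted p = 0.0807, 0.11 and 0.132 without dark adapted replicates 1, 2 and 3, and 0.143 and 0.182 without light damaged replicates 1 and 2), and on reference-centred arrays (adjusted p = 0.057). A further probe set of the gene gave 1.43.

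**Figure D4:**
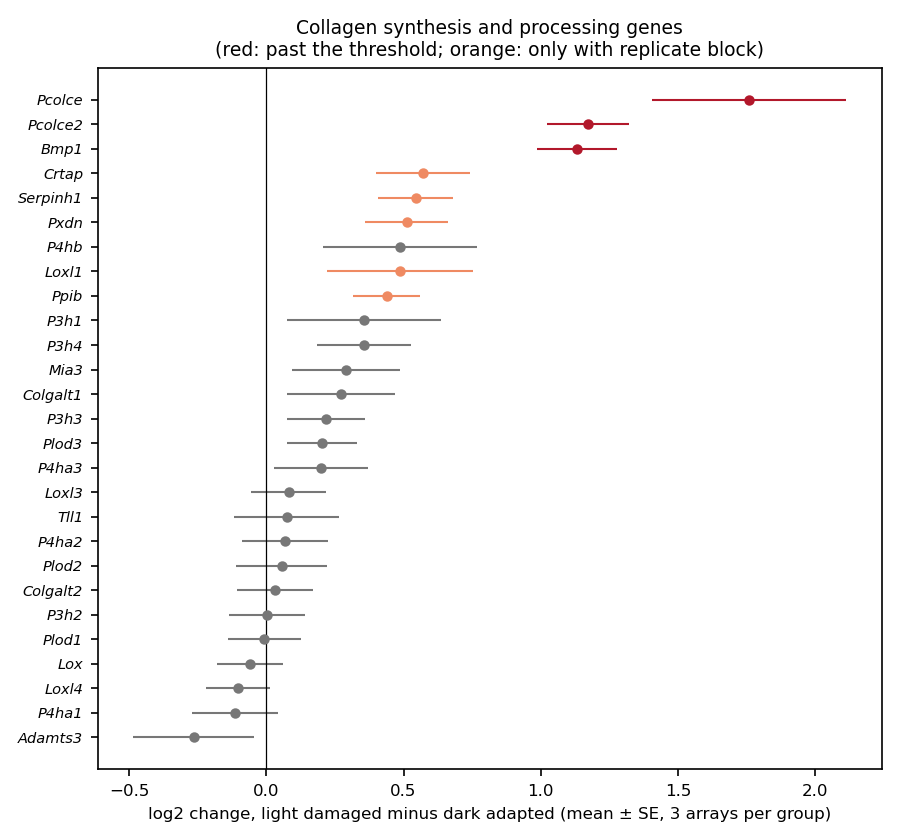
Log2 change of the 27 measured genes of collagen synthesis and processing, light damaged minus dark adapted retinas. Points are differences of group means and bars their standard errors from the unpaired limma fit with 3 arrays per group; red marks genes past the threshold in that fit and orange those past it only with the replicate block. Pcolce, Pcolce2 and Bmp1 stand apart at 1.76, 1.17 and 1.13, and the 24 other genes lie between -0.27 and 0.57.

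Several genes of chain folding and crosslinking rose only in the fit with the block. They were Crtap, a subunit of the prolyl 3-hydroxylase complex (0.57, adjusted p = 0.0162 with the block), Serpinh1, the collagen chaperone HSP47 (0.54, 0.0135), Pxdn, the peroxidase that crosslinks collagen IV (0.51, 0.0175), Loxl1, a lysyl oxidase family member (0.49, 0.0215), and Ppib, the cyclophilin of the same hydroxylase complex (0.44, 0.0296). All 5 had adjusted p of 0.11 or more without the block. A further probe set of Serpinh1 gave 1.02, and averaging both brought the gene past the threshold without the block (0.78, adjusted p = 0.0126). Its call with the block was lost on quantile normalized arrays, on reference-centred arrays and without pairs 1 or 2 (adjusted p = 0.0772, 0.138, 0.0675 and 0.122). The call of Ppib was lost in the same 4 fits (0.136, 0.147, 0.0853 and 0.293), that of Loxl1 in these (0.056, 0.146, 0.0517 and 0.277) and with the mean of probe sets (0.088), and that of Pxdn on reference-centred arrays and without pairs 1 or 2 (0.0764, 0.0719 and 0.0593). Crtap was called in all 9 fits with the block (adjusted p up to 0.0468). The prolyl 4-hydroxylase genes P4ha1, P4ha2 and P4hb, needed for stable triple helices, were at -0.11, 0.07 and 0.49, and the lysyl hydroxylase genes Plod1, Plod2 and Plod3 at -0.01, 0.06 and 0.20. None of these 6 passed in either fit.

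Collagen receptors and partners gave no call without the block. Of 9 receptor genes 2 had an unadjusted p under 0.05 (22.2%, against 11.0% of all genes), and 2 rose with the block (22.2%, against 6.73% of all genes): the integrin subunit gene Itgb1 (0.51, adjusted p = 0.115 and 0.017 with the block), which had the smallest p of the list, and the receptor tyrosine kinase gene Ddr1 (0.50, 0.0173 with the block). Among other probe sets of Itgb1 and Ddr1 changes ranged from -0.50 to 1.00 and from -0.23 to 0.59. The median of the list was 0.05. Both calls with the block were lost on quantile normalized arrays, on reference-centred arrays, with the mean of probe sets and without pairs 1 or 2, where 0 of 9 receptors rose. Without probe sets that may match several transcripts, Itgb1 was read by another probe set and passed without the block (1.00, adjusted p = 0.0238).

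Of 15 other basement membrane genes none passed without the block and 2 rose with it (13.3%, against 6.73% of all genes). Agrn, the heparan sulfate proteoglycan agrin, measured 8.46, 8.30 and 7.57 in dark adapted and 9.09, 9.20 and 8.71 in light damaged retinas, without overlap (0.89 ± 0.25, SE, adjusted p = 0.151 and 0.00205 with the block). Sparc, a collagen IV binding protein, measured 10.27, 9.48 and 10.53 against 10.91, 10.07 and 11.00 (0.57 ± 0.32, SE, adjusted p = 0.635 and 0.00953 with the block). Its replicate 2 was lowest in both groups, and its other probe sets gave 0.59 and -0.24. Agrn was called in all 9 fits with the block, and its other probe set gave 0.53. The Sparc call was lost on quantile normalized arrays, on reference-centred arrays, with the mean of probe sets and without pairs 1 or 2 (adjusted p = 0.107, 0.103, 0.0825, 0.05003 and 0.0793), and in all of these but the last the count of the list fell to 1. The laminin genes of the list changed by -0.15 (Lamb3) to 0.23 (Lama1), and the nidogen gene Nid1 and the perlecan gene Hspg2 were at 0.37 and 0.14, none of them past the threshold. Median change was 0.13.

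Of 8 collagen-binding proteoglycans and fibril regulators none passed in either fit. Without the block 2 of the 8 had an unadjusted p under 0.05, where 11.0% of all genes did. The median change of the list was -0.04, with 3 positive and 5 negative changes from -0.39 (Fmod) to 0.52 (Fn1, fibronectin). Fmod, fibromodulin, had the smallest p (-0.39 ± 0.15, SE, adjusted p = 0.348), with all light damaged arrays below the dark adapted ones, and other probe sets of it gave -0.16 to 0.15. Fibroblasts make fibrillar collagens in other tissues. Of 7 fibroblast markers, which changed by -0.39 to 0.49, 1 rose with the block, where 6.73% of all genes did. It was Fbln1, which also had the smallest p (0.49, adjusted p = 0.308 and 0.0165 with the block). The summed linear signal of the list was 656 to 727 in dark adapted and 777 to 876 in light damaged retinas, without overlap. The Fbln1 call was lost in 6 of the other 8 fits with the block (adjusted p from 0.0571 to 0.176). Of 8 pericyte and smooth muscle markers none passed in either fit, with Rgs5 at the upper end (0.49, adjusted p = 0.79), and the summed signal was 1323 to 1619 against 1490 to 1694. The 10 retinal pigment epithelium markers changed by -0.65 to 0.99, 4 of them upward and 6 downward. Of these 1 rose with the block, where 6.73% of all genes did: the transthyretin gene Ttr (0.99, adjusted p = 0.274 and 0.0471 with the block). The summed signals of the list were 1124 to 1790 in dark adapted and 1343 to 2599 in light damaged retinas. The Ttr call was lost on quantile normalized arrays, on reference-centred arrays and with the mean of probe sets (adjusted p = 0.222, 0.25 and 0.134). The part of these cells in the collagen values was not tested.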

How the data were processed

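Total RNA of 6 retina samples was labelled with biotin and hybridised to Affymetrix arrays, per the labels' protocols. The deposited log2 values per probe set were made by the authors with RMA, per the submitters' processing notes; the log2 scale was judged from their range, and the genome build behind the annotation is not stated there. RMA brings arrays close in distribution, so a change in total RNA is not seen. The deposited arrays still differed, with upper quartiles from 7.41 to 7.67.

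The platform annotation from GEO names a single gene for 34945 of 45101 probe sets. The probe set with the highest mean represented each gene (18193 genes); 27 collagen genes had several, and in 11 of these a further one had the opposite sign. Groups were compared with limma 3.58.1 (lmFit, eBayes) in R 4.3.3, and p-values were adjusted by Benjamini-Hochberg across the 18193 genes (threshold 0.05); scripts were tested on simulated data. Same-numbered arrays correlated in their deviations from the group means (0.731, 0.618 and 0.432; other combinations -0.48 to 0.00902), which was read as pairing; no label states it. Blocked values are printed where they change a call.

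Full values are given for collagen genes past the threshold in either fit and for the basement membrane and fibrillar classes; companion lists give up to 4 called members or the smallest p, and marker lists the smallest p, with further genes named beside them after their values were seen. Members and lists were chosen with earlier results of these data known. A planned comparison of protein sequences was not made. Reference centring used 6 of the 8 listed genes.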

Additional observations from a re-analysis of the deposited data

How the results depend on the processing

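Without the replicate block, no alternative called a collagen gene except the fits with 1 array left out, where the number lower ranged from 0 to 1 (Col19a1, without dark adapted replicate 3) and the number higher was 0. With the replicate block alone 4 collagen genes were higher and 1 lower, and 3 basement membrane genes were higher. The block was also combined, after the data were seen, with other choices. With quantile normalization it gave 3 higher and 2 lower (2 basement membrane genes higher, 1 fibrillar gene lower), with reference centring 3 and 2 (2 basement membrane genes higher), with the mean of probe sets 5 and 1 (3 basement membrane genes higher), without probe sets that may match several transcripts 4 and 1 (3 higher), and without dim genes 4 and 2 (3 higher). Leaving out 1 pair gave 3 to 8 higher and 1 to 5 lower. Of the basement membrane genes 2 to 4 were higher and 0 to 2 lower, and of the fibrillar genes 0 to 2 were higher and 0 to 1 lower. The upper ends came without pair 3. Over all genes these fits gave 737 to 1966 higher and 338 to 1200 lower, again with the upper ends without pair 3. Col4a1, Col4a2 and Col8a1 were called in all 9 fits with the block. The fibrillar median change was -0.13 after reference centring, -0.049 to 0.10 with 1 array left out and -0.06 to 0.11 with the block and 1 pair left out; the basement membrane median stayed between 0.03 and 0.23. Over all genes the count was 365 without and 1613 with the block. Reference centring moved the median of all genes from 0.03 to -0.07 and the calls to 213 higher and 98 lower, and quantile normalization to 327 and 162; with 1 array left out 141 to 384 genes were higher and 9 to 82 lower. Processing genes higher numbered 2 to 5 without and 4 to 10 with the block. Causes of these shifts were not tested. Of 495 collagen changes under the alternatives without the block, 43 switched sign, none of them called.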
